A study of Homo sapiens with 4 samples.

Results

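The genes described here are 10 components of transforming growth factor beta (TGF-beta) signalling: the ligands TGFB1, TGFB2 and TGFB3, the receptors TGFBR1, TGFBR2 and TGFBR3, the signal transducer SMAD3, and the regulators SMAD6, SMAD7 and SKIL. They were taken as every entry of the count files whose gene symbol is 1 of these 10 names, out of 34484 gene symbols, and they comprise 53 of the 119207 transcripts listed. RNA was sequenced from A549, an established human lung adenocarcinoma cell line, grown close to confluence in F12K medium. Cells were exposed for 3 h to dexamethasone, a potent agonist of the glucocorticoid receptor, at 100 nM, or to the vehicle, 0.02% ethanol, with 2 libraries in each group (dex and etoh below). No genetic change was named for either group, and the same line served both. Nothing in the labels tells whether replicate libraries were grown as separate cultures, and p-values here therefore reflect only library-to-library variation, possibly technical.

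TGF-beta is secreted in a latent complex and acts after its release by binding the type II receptor TGFBR2, which then phosphorylates the type I receptor TGFBR1. TGFBR1 phosphorylates SMAD2 and SMAD3, which join SMAD4 and bind DNA, while the inhibitory proteins SMAD6 and SMAD7 and the nuclear co-repressor SKIL restrain the signal. In lung epithelium this pathway is known for arresting proliferation, for inducing matrix genes and for epithelial to mesenchymal transition.

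Between 9764159 and 11887526 reads per library were aligned to named transcripts, and 3 counts, taken as the lowest level told apart from 0, corresponded to 0.252 to 0.307 CPM (reads scaled to the aligned total of the library). This floor covers counting error only, because the reads carry no molecular identifiers, while the 95% intervals given below come from the edgeR fit and include the spread between libraries. FKBP5, a known glucocorticoid target, was at 22.4 ± 0.359 CPM in etoh and 231 ± 1.78 CPM in dex (SD, n = 2 each), and TSC22D3, another, at 7.70 ± 0.173 and 167 ± 9.11 CPM. Of 6 epithelial markers, 6 lay above 1 TPM (reads scaled by transcript length and library) and 3 rose with dex. The summed level of the 6 was 5665 to 6311 TPM in etoh and 9631 to 10767 TPM in dex. KRT8, KRT18 and KRT7 rose, from 2623, 2533 and 773 TPM in etoh to 5014, 3934 and 1194 TPM in dex. EPCAM, KRT19 and CDH1 did not pass, with log2 fold changes of -0.215, 0.078 and 0.154. Of 7 alveolar type II markers, 2 lay above 1 TPM, with SFTPA1 at 0 reads. Of 6 fibroblast markers, 2 lay above 1 TPM, and their summed level was 12.2 to 12.4 TPM in etoh and 17.1 to 20.3 TPM in dex, a difference whose part in the results below was not tested. COL1A1 alone rose among these, from 9.92 to 16.7 TPM; LUM and PDGFRA had log2 fold changes of -1.12 and -0.60 and did not pass. The fibroblast marker COL1A2, the endothelial marker VWF and the leukocyte marker CD3E were at 0 reads in every library. The leukocyte marker CD68 was at 4.95 TPM in etoh and 5.59 TPM in dex and did not pass. No other listed endothelial or leukocyte marker had more than 5 reads in a library. In such bulk RNA, fewer cells of a type and less RNA per cell cannot be told apart.

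Across all genes, 1687 of 14716 tested (11.5%) passed edgeR's quasi-likelihood test at an adjusted p of 0.05, 7.12% higher and 4.34% lower in dex. Of the 10 pathway genes, 9 had enough reads to be tested and 4 passed: TGFBR1 and TGFBR3 rose, and TGFB2 and SMAD3 fell. TGFB1, TGFBR2, SMAD6, SMAD7 and SKIL did not pass, and TGFB3 was too low to test. The groups' libraries did not overlap in CPM for 5 of the 9 tested genes, a share to be read beside 53.4% of all tested genes. The 10 genes were chosen with earlier results of these data known, so the share that passed describes them and tests nothing.

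**Figure D1:**
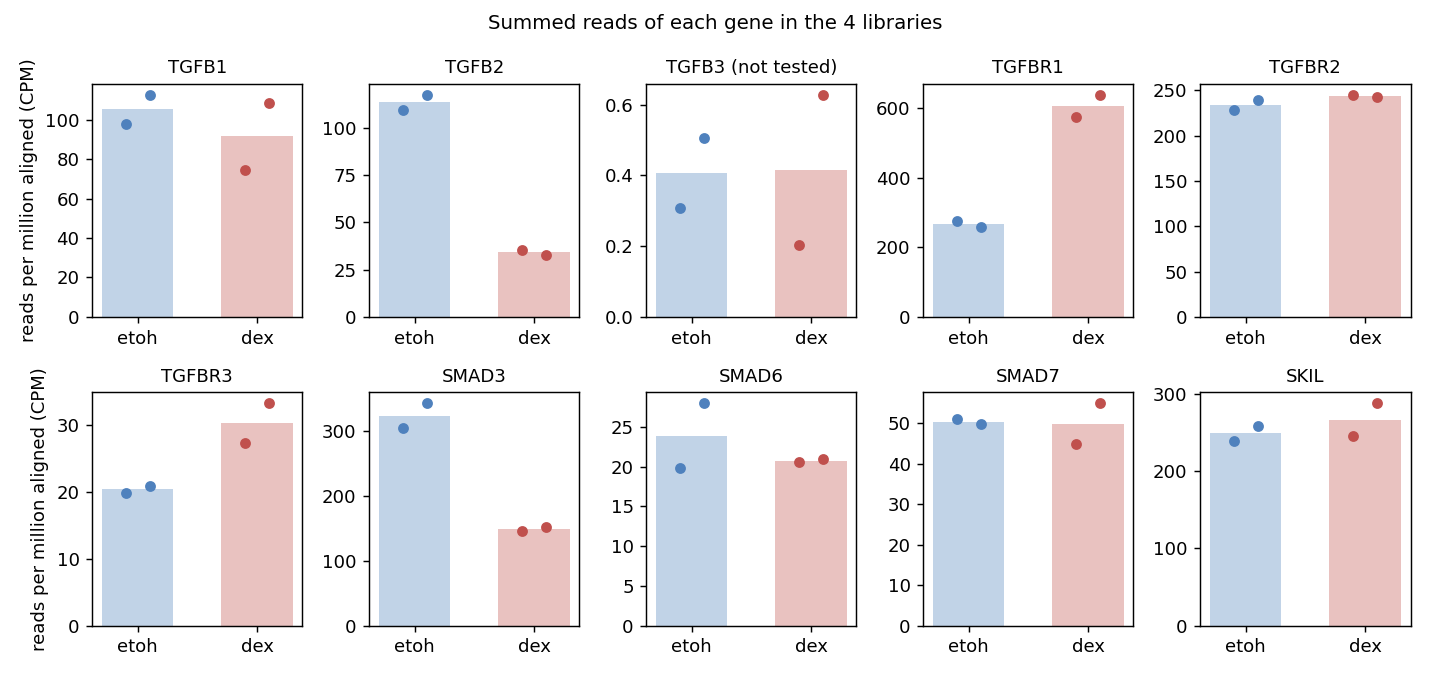
Level of each of the 10 genes in CPM, 1 panel per gene, on linear axes that start at 0, with points for single libraries and bars for the mean of 2 libraries. The dex points of TGFB2 and SMAD3 lie below those of etoh and the dex points of TGFBR1 and TGFBR3 lie above them, while the TGFB1 points of the groups overlap.

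The promoter windows of the genes that changed are given here so that their letters can be read beside the values below. SMAD6 is added because its window held the palindrome of SMAD proteins. Each is the 250 bases before the RefSeq gene start (GRCh38.p14), written 5′ to 3′ on the gene's own strand, and all 10 genes had an entry in the promoter table. Where a gene had several windows, the one nearest to the GENCODE start of its most counted transcript was taken. Capitals mark every match to 1 of 7 motifs searched on both strands: the glucocorticoid receptor half-site AGAACA, the full element of that receptor (AGAACA, any 3 bases, then TGTTCT), the SMAD palindrome GTCTAGAC, the AP-1 element TGANTCA, the E-box CACGTG, the GC box GGGCGG and the TATA box TATAAA. The half-site lies inside the full element, and a match is a description of letters, not of binding.
TGFB2 promoter, chr1:218345086-218345335, plus strand: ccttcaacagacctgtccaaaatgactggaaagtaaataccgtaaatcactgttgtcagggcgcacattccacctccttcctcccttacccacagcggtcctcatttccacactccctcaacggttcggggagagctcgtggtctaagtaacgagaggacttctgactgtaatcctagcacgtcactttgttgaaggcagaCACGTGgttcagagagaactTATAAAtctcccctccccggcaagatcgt
TGFBR1 promoter, chr9:99104833-99105082, plus strand: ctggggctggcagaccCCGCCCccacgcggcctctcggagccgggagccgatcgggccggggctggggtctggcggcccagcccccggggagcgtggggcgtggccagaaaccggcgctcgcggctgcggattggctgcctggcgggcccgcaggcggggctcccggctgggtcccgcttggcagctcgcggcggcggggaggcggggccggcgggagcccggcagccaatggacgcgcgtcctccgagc
TGFBR3 promoter, chr1:91886152-91886401, minus strand: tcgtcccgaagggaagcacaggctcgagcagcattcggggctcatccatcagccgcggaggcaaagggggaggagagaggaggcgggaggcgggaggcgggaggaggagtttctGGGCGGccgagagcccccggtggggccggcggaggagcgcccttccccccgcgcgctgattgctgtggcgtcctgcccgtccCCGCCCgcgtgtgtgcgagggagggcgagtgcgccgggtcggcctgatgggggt
SMAD3 promoter, chr15:67065352-67065601, plus strand: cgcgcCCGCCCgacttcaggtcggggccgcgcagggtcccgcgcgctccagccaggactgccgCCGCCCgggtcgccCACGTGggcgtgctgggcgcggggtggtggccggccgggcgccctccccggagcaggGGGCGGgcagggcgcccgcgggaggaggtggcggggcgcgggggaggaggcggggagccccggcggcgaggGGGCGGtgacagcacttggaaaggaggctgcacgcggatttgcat
SMAD6 promoter, chr15:66701986-66702235, plus strand: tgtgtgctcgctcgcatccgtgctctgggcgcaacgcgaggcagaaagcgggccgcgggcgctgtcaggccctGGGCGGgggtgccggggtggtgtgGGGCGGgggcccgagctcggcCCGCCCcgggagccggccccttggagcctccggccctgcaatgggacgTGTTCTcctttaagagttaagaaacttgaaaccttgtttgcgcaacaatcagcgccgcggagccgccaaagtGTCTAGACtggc

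The TGFB2 window held an E-box 49 to 44 bases before the start and a TATA box 29 to 24 bases before it. Among 35116 promoter windows of the same length, 6.34% held an E-box and 10.7% a TATA box. Its RefSeq start lies 899 bases from the GENCODE start of the most counted transcript. The window had 50.4% G and C, against 81.2% in TGFBR1, 73.6% in TGFBR3, 80.8% in SMAD3 and 68% in SMAD6. The TGFBR1 window held 1 GC box, TGFBR3 2 and SMAD3 4, beside a SMAD3 E-box 173 to 168 bases before the start; 42.6% of all windows held a GC box. The SMAD6 window held the SMAD palindrome 12 to 5 bases before the start, a motif found in 64 of the 35116 windows (0.182%), and a glucocorticoid half-site 84 to 79 bases before it. None of the 25 windows of the 10 genes held the full glucocorticoid element, which matched 1 of all windows (0.00285%). The half-site matched 5 of the 25 windows and 12.4% of all windows, and the AP-1 element 1 of 25 and 6.57%.

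Among the ligands, TGFB2 (chr1:218346235-218444619, plus strand, GRCh38, GENCODE 29) was at 109 and 117 CPM in the etoh libraries and at 35.6 and 32.9 CPM in the dex libraries. Both dex libraries lay far below both etoh libraries. The fold change on the log2 scale was -1.71 (SE 0.113, 95% interval -1.94 to -1.47), a 3.26-fold lower level, with an edgeR adjusted p of 2.0e-10. TGFB2 ranked 49 from the lowest log2 fold change among the 14716 tested genes. Leaving out each library in turn gave -1.77 to -1.65. Exons of TGFB2 overlap those of TGFB2-OT1 on the same strand over 1371 bases. The counts have no entry for TGFB2-OT1, so its reads from there could not be told from those of TGFB2.

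TGFB1 (chr19:41301587-41353911, minus strand) encodes the ligand most studied in fibrosis and immunity. It was at 97.8 and 113 CPM in etoh and at 74.7 and 109 CPM in dex. The second dex library lay within the etoh range and the first lay below it, so the groups overlapped. The log2 fold change was -0.18 (SE 0.132, 95% interval -0.45 to 0.10; edgeR adjusted p = 0.462), and the 2 dex libraries decided its sign: it was 0.06 without dex replicate 1 and -0.47 without dex replicate 2, where it passed (edgeR adjusted p = 0.0110). TGFB1 shares 215 exonic bases with HNRNPUL1 on the opposite strand, which was at 2897 to 3771 reads per library, and no source used here states the strand setting of the counts. TGFB3 (chr14:75958099-75982991, minus strand) had 3 and 6 reads in etoh and 2 and 7 in dex, 9 in each group, so no difference was detectable at this depth.

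Per transcript length, the make-up of ligand RNA shifted towards TGFB1. In etoh, TGFB1 made up 69.8% ± 0.507 of the summed ligand TPM and TGFB2 29.9% ± 0.516, and in dex they made up 86.4% ± 2.83 and 13.3% ± 3.04 (SD, n = 2 each). The summed ligand level was 141 and 145 TPM in the etoh libraries and 85.1 and 111 TPM in the dex libraries. Both dex sums lay below both etoh sums. No test was run on these shares, and an exact permutation test of 2 against 2 libraries cannot give a p below 0.333.

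**Figure D2:**
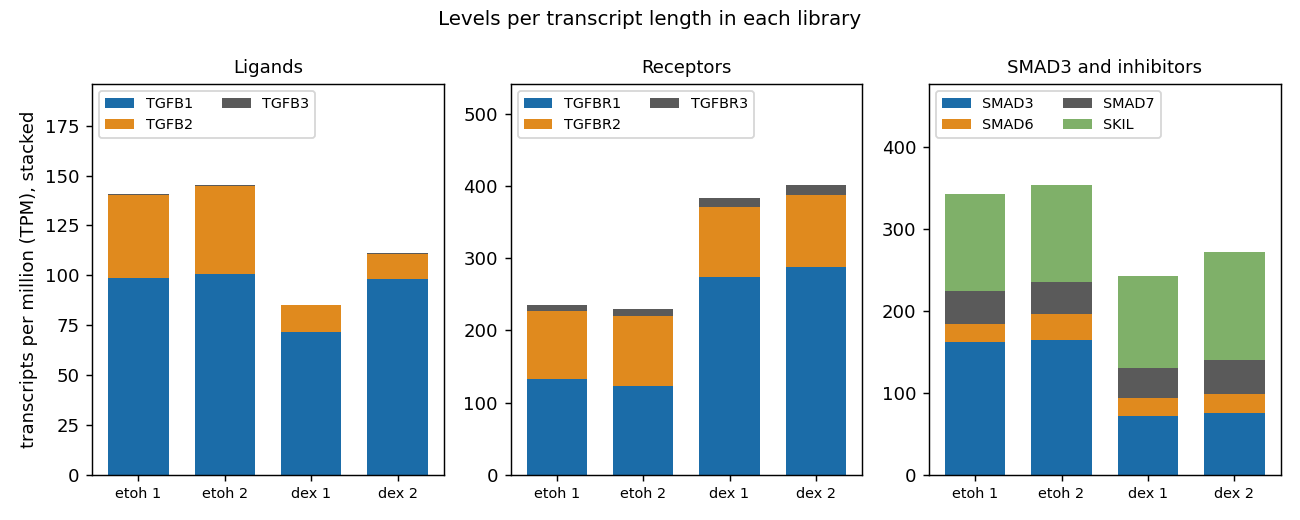
TPM levels stacked by gene in 3 panels, the ligands, the receptors, and SMAD3 with its inhibitors SMAD6, SMAD7 and SKIL, 1 bar per library on axes that start at 0. TGFB2 and SMAD3 take smaller parts and TGFBR1 a larger part of their bars in both dex libraries.

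TGFBR1 (chr9:99104038-99154192, plus strand), the type I receptor kinase, was at 276 and 258 CPM in the etoh libraries and at 574 and 638 CPM in the dex libraries. All dex values exceeded the etoh values by more than the spread within a group. Its log2 fold change was 1.20 (SE 0.098, 95% interval 1.00 to 1.41), a 2.30-fold higher level (edgeR adjusted p = 7.1e-09), and leaving out each library in turn gave 1.13 to 1.27. Ranked among all tested genes, it stood 310 from the highest. TGFBR2 (chr3:30606502-30694142, plus strand), the type II receptor kinase, was at 229 and 239 CPM in etoh and 245 and 242 CPM in dex. Both dex libraries were above both etoh libraries, but by little: the log2 fold change was 0.08 (SE 0.094, 95% interval -0.11 to 0.28; edgeR adjusted p = 0.657). Its interval excluded a change of the size seen for TGFBR1.

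TGFBR3 (chr1:91680343-91906335, minus strand), or betaglycan, is a co-receptor that presents ligand and that TGFB2 uses most. It was at 19.8 and 21.0 CPM in etoh and at 27.4 and 33.2 CPM in dex. Both dex libraries lay above both etoh libraries. The log2 fold change was 0.60 (SE 0.140, 95% interval 0.31 to 0.89), 1.51-fold higher, with an edgeR adjusted p of 0.00575. This call rested on the fewest reads of the 4, 442 in etoh and 639 in dex, and on dex replicate 2: without it, the log2 fold change was 0.45 and the adjusted p from edgeR was 0.0714.

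Receptor proportions differed between the groups. In etoh, TGFBR1 made up 55.2% ± 2.04 of the receptor TPM and TGFBR2 41.2% ± 1.62, and in dex 71.6% ± 0.322 and 25.1% ± 0.683, while TGFBR3 stayed between 3.06% and 3.87% in the 4 libraries. The TPM ratio of TGFBR1 to TGFBR2 was 1.41 and 1.27 in the etoh libraries and 2.79 and 2.91 in the dex libraries. These ratios did not overlap between groups.

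SMAD3 (chr15:67063763-67195195, plus strand), a receptor-regulated transducer, was at 305 and 342 CPM in etoh and at 146 and 152 CPM in dex. Both dex libraries lay below both etoh libraries. The log2 fold change was -1.10 (SE 0.098, 95% interval -1.30 to -0.89), 2.14-fold lower (edgeR adjusted p = 2.6e-08), and leaving out each library in turn gave -1.16 to -1.03. SMAD3 ranked 162 from the lowest log2 fold change.

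The inhibitory SMADs and SKIL did not pass. SMAD7 (chr18:48919853-48952052, minus strand), which recruits ubiquitin ligases to TGFBR1, was at 51.0 and 49.9 CPM in etoh and 44.9 and 54.9 CPM in dex. Dex replicates fell on either side of the etoh values. The log2 fold change was 0.01 (SE 0.118, 95% interval -0.24 to 0.25), and its sign turned under other settings. SMAD6 (chr15:66702228-66782848, plus strand), which inhibits mainly bone morphogenetic protein signalling, was at 19.9 and 27.9 CPM in etoh and 20.6 and 20.9 CPM in dex. Its dex values lay inside the etoh range, the log2 fold change was -0.19 (SE 0.156, 95% interval -0.51 to 0.13), and without etoh replicate 2 it was 0.06. SKIL (chr3:170357678-170396835, plus strand), the co-repressor SnoN that SMADs induce and that limits them, was at 240 and 259 CPM in etoh and 246 and 288 CPM in dex. Its groups overlapped, with a log2 fold change of 0.12 (SE 0.100, 95% interval -0.09 to 0.33). The TPM ratio of SMAD3 to SMAD7 was 3.96 and 4.28 in the etoh libraries and 2.00 and 1.79 in the dex libraries, so the ratio was lower in both dex libraries.

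**Figure D3:**
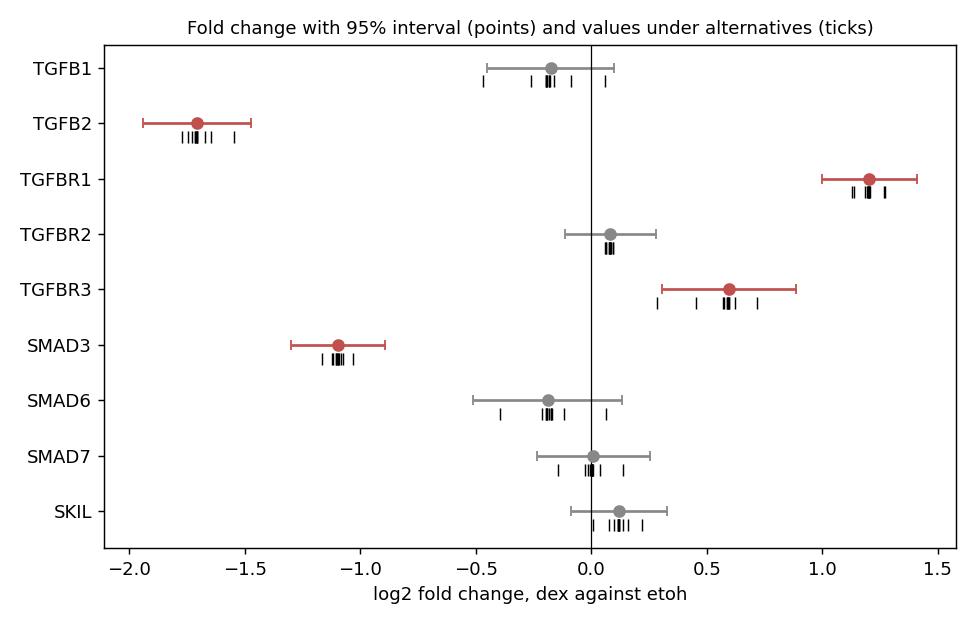
Log2 fold change of dex over etoh for the 9 tested genes, with points and 95% intervals from edgeR (red where the adjusted p passed 0.05, grey otherwise) and black ticks for the values under the alternatives, including each library left out. TGFB2, SMAD3, TGFBR1 and TGFBR3 have intervals clear of 0, and the intervals of the other tested genes include 0.

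Ordered by etoh level per transcript length, SMAD3 stood at 163 ± 1.40 TPM, TGFBR1 at 128 ± 7.02, SKIL at 118 ± 0.310, TGFB1 at 99.8 ± 1.53, TGFBR2 at 95.8 ± 2.05, TGFB2 at 42.8 ± 1.70, SMAD7 at 39.7 ± 1.88, SMAD6 at 26.9 ± 7.63, TGFBR3 at 8.30 ± 0.826 and TGFB3 at 0.379 ± 0.00478 (SD, n = 2). In dex the order began with TGFBR1 at 281 ± 10.4 TPM, then SKIL at 122 ± 13.3, TGFBR2 at 98.5 ± 0.541, TGFB1 at 84.9 ± 18.6 and SMAD3 at 73.7 ± 2.46. TGFB2, at 12.7 ± 0.548 TPM, now lay level with TGFBR3 at 13.0 ± 1.84, a pair whose libraries overlapped. SMAD6 and SMAD7 were at 22.5 ± 0.454 and 39.1 ± 4.39 TPM in dex. In dex the libraries of TGFB1, at 71.8 and 98.1 TPM, spanned those of SMAD3, at 71.9 and 75.4 TPM, so these neighbours did not differ beyond their spread. The libraries of TGFB1 and TGFBR2, neighbours in etoh, did not overlap there, at 98.7 and 101 TPM against 94.3 and 97.2 TPM. The TPM of a gene also depends on which of its transcripts shared reads were placed on, because lengths differ. TGFB1-004, of 559 bases, held 9.67% of the TGFB1 reads in etoh, and TGFB1-001, of 2769 bases, 90.3%.

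Gene-level values were sums over transcripts, so values of single transcripts are given too. Transcripts of a gene share sequence, so their values are not independent of each other or of the gene's value. Their common direction is therefore no separate check of the gene calls. Of the 53 transcripts, 44 were tested and 18 passed in edgeR, 9 higher (7 of TGFBR1 and 2 of TGFBR3) and 9 lower (7 of SMAD3 and 2 of TGFB2), beside 5.64% of the 49857 transcripts tested over all genes, 3.57% higher and 2.07% lower. Both TGFB2 transcripts fell, TGFB2-001 with a log2 fold change of -1.57 (SE 0.134) and TGFB2-002 with -1.88 (SE 0.131), and they held 49.3% and 50.7% of the gene's reads in etoh. All 10 TGFBR1 transcripts were tested, with log2 fold changes between 0.75 and 1.32. The 3 largest, TGFBR1-001, TGFBR1-004 and TGFBR1-003, held 30.4%, 30.4% and 29.4% of the gene's reads in dex. SMAD3-001 held 87.8% of the SMAD3 reads in etoh and 87.9% in dex, and had a log2 fold change of -1.10 (SE 0.108).

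Fitted log2 fold changes of the TGFBR3 transcripts ranged from 0.27 to 1.34, but no difference between them passed the share test given below. TGFBR3-201, the most counted, held 45.3% of the reads in etoh and 36.3% in dex, and its log2 fold change was 0.27 (SE 0.181; edgeR adjusted p = 0.495). TGFBR3-006 and TGFBR3-002 rose, with log2 fold changes of 1.32 (SE 0.315, edgeR adjusted p = 0.00852) and 1.34 (SE 0.337, edgeR adjusted p = 0.0135), from 12 and 20 and from 10 and 17 reads in the etoh libraries. Taking only the most counted transcript of each gene, TGFBR3 had a log2 fold change of 0.29 and an edgeR adjusted p of 0.412. A test of transcript shares within genes (edgeR's diffSpliceDGE) passed 0 of 44 pathway transcripts and 0% of the 45807 tested. Before adjustment, 3 of the 44 had a p under 0.05 in that test, TGFBR3-006, TGFBR3-002 and SMAD3-013. Over all transcripts tested, 2.61% had such a p, and none of the 3 passed after adjustment. In 9 pairs of transcripts with identical sequence, not required to share a gene, reads were placed on a single transcript and split about evenly. Counts were equal in 2 of 34 comparisons, with a chi-square per degree of freedom of 0.825 for an even split. Placement among transcripts of a gene that share only part of their sequence was not checked. Transcript counts of shared sequence carry whatever placement was used.

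**Figure D4:**
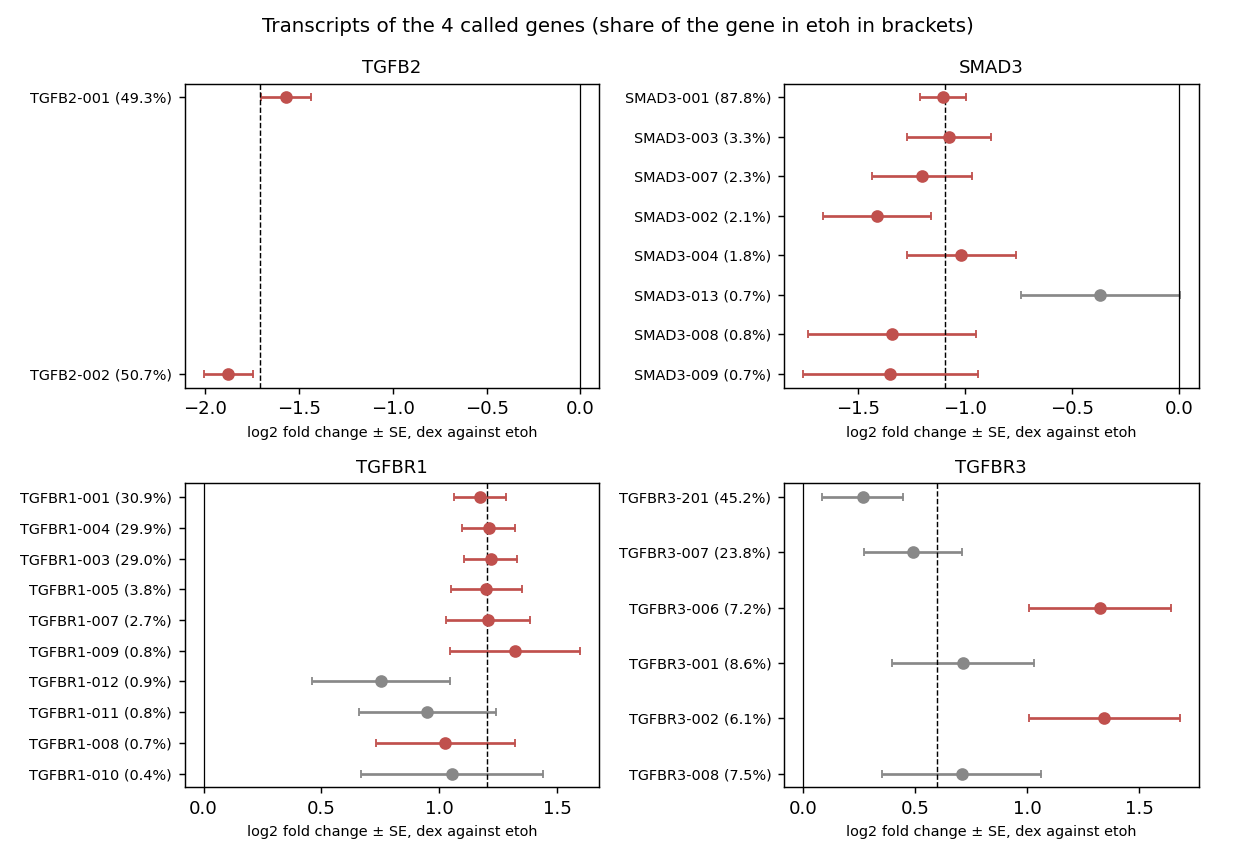
Log2 fold change of dex over etoh for each tested transcript of the 4 called genes, with lines for 1 SE on either side, red points where the adjusted p passed 0.05 in edgeR, the share of the gene's etoh reads in brackets and a dashed line at the gene's own value. Transcripts of TGFB2 and SMAD3 lie below 0, those of TGFBR1 above 0, and those of TGFBR3 spread from 0.27 to 1.34.

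The genes whose values lay nearest to those of TGFBR1 over the 4 libraries, by Euclidean distance of centred log2(CPM + 0.5), were NAV2 and GMPR at a distance of 0.04 and RBM20 at 0.06. Nearest to TGFB2 were IER3 at 0.04, TP63 at 0.06 and IFFO2 at 0.08. Their fitted log2 fold changes were 1.20 for NAV2, 2.14 for GMPR, 1.21 for RBM20, -1.79 for IER3, -1.90 for TP63 and -1.72 for IFFO2, against 1.20 for TGFBR1 and -1.71 for TGFB2. The value of GMPR lay far from that of TGFBR1 although its distance was small. GMPR was at 0.307 and 0.252 CPM in etoh, the level of 3 reads, and at 1.119 and 1.347 CPM in dex. The 0.5 CPM added before the logarithm narrowed that difference in the distance but did not enter the fitted value.

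Other genes of the pathway were read from lists of known function, which were chosen with earlier results of these data known. The share of a list that passed is therefore a description and not a test of the list. The counts of each list are to be read beside all tested genes, of which 7.12% passed higher and 4.34% lower in dex. Among 24 genes of latency, release and processing of TGF-beta, 20 were tested: 3 rose and 2 fell, with a median log2 fold change of 0.08 beside 0.00 over all genes. THBS1, thrombospondin 1, which activates latent TGF-beta, was at 289 and 284 CPM in etoh and 616 and 582 CPM in dex, a log2 fold change of 1.09 (SE 0.096, edgeR adjusted p = 2.3e-08). PCSK5, a proprotein convertase, was at 10.45 and 11.19 CPM in etoh and 21.0 and 22.1 CPM in dex and rose by a log2 fold change of 1.01, while PLAU (-0.57) and its receptor PLAUR (-0.82), the last named after its value was seen, fell. The PLAUR call was lost with DESeq2, at an adjusted p of 0.0604.

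Of 17 accessory and related receptors, 14 were tested, with 3 higher, 3 lower and a median log2 fold change of -0.15. CD109, a co-receptor that inhibits TGF-beta signalling, was at 285 and 294 CPM in etoh and 459 and 460 CPM in dex (log2 fold change 0.69), and the pseudoreceptor BAMBI, another inhibitor, was at 42.6 and 39.7 CPM in etoh and 24.5 and 18.8 CPM in dex (-0.91). Both groups of each gene stood apart. ACVR1 and ACVR1B rose (log2 fold changes 0.39 and 0.48) and DAB2 and BMPR1B fell (-0.64 and -0.38); ACVR1B and BMPR1B were named after their values were seen. Of these 4 calls, 3 were lost with DESeq2, where the adjusted p was 0.0569 for ACVR1, 0.110 for ACVR1B and 0.122 for BMPR1B. With a library left out, the highest edgeR adjusted p was 0.142 for ACVR1 and 0.361 for ACVR1B, both without dex replicate 1, 0.424 for BMPR1B without etoh replicate 1, and 0.0617 for DAB2 without dex replicate 2. Calls were also lost for ACVR1 without etoh replicate 1 (0.124) or etoh replicate 2 (0.0649), for ACVR1B without etoh replicate 2 (0.104), and for BMPR1B without dex replicate 1 (0.103) or dex replicate 2 (0.0782), all as edgeR adjusted p. FKBP1A, which binds TGFBR1 and keeps it inactive, was the list's highest at 695 TPM in etoh and 629 TPM in dex and had a log2 fold change of -0.12.

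Among 30 tested genes of other SMADs and their regulators, 1 rose, 2 fell and the median log2 fold change was -0.05. HIPK2, a kinase that acts with co-repressors, was at 151 and 154 CPM in etoh and 370 and 311 CPM in dex (log2 fold change 1.18). TGIF1, a SMAD co-repressor, was at 88.5 and 87.8 CPM in etoh and 42.8 and 46.2 CPM in dex (-0.96), and PMEPA1, which sequesters receptor-regulated SMADs, had -0.53. SMAD2, the partner of SMAD3, had a log2 fold change of -0.29 (SE 0.100, edgeR adjusted p = 0.0699) and did not pass, though it did with aligned totals alone (-0.31, edgeR adjusted p = 0.0439) and without dex replicate 2 (-0.36, edgeR adjusted p = 0.0449). Of 14 tested BMP and GDF ligands and their antagonists, NBL1 rose (1.33) and GDF15 fell (-2.40, SE 0.435), with a median log2 fold change of -0.32. GDF15 rested on few reads, 25 and 37 in etoh and 5 and 6 in dex. Its dex levels, 0.509 and 0.539 CPM, were close to the floor.

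A list of 40 genes known to respond to TGF-beta had 38 tested, of which 12 rose, 8 fell and 18 did not pass. Over all tested genes, 11.5% passed in either direction. The median log2 fold change of the list was 0.10. CTGF, a matricellular gene, was at 29.6 and 29.6 CPM in etoh and 116 and 143 CPM in dex, a log2 fold change of 2.15 (SE 0.121, edgeR adjusted p = 1.5e-11). SNAI2, a repressor of epithelial genes, was at 2.25 and 1.60 CPM in etoh and 13.1 and 15.8 CPM in dex (2.95). IL11, a fibrosis-linked cytokine, moved the other way, from 30.11 and 29.02 CPM in etoh to 3.05 and 2.78 CPM in dex (-3.32). TGFBI had the highest level per length, 2714 TPM in etoh and 2998 TPM in dex, and a log2 fold change of 0.17 that did not pass. The lists overlap (PMEPA1 and BAMBI, for example, each sit in 2 of them), and several responsive genes are also known glucocorticoid targets, so what part TGF-beta had in these counts was not tested.

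**Figure D5:**
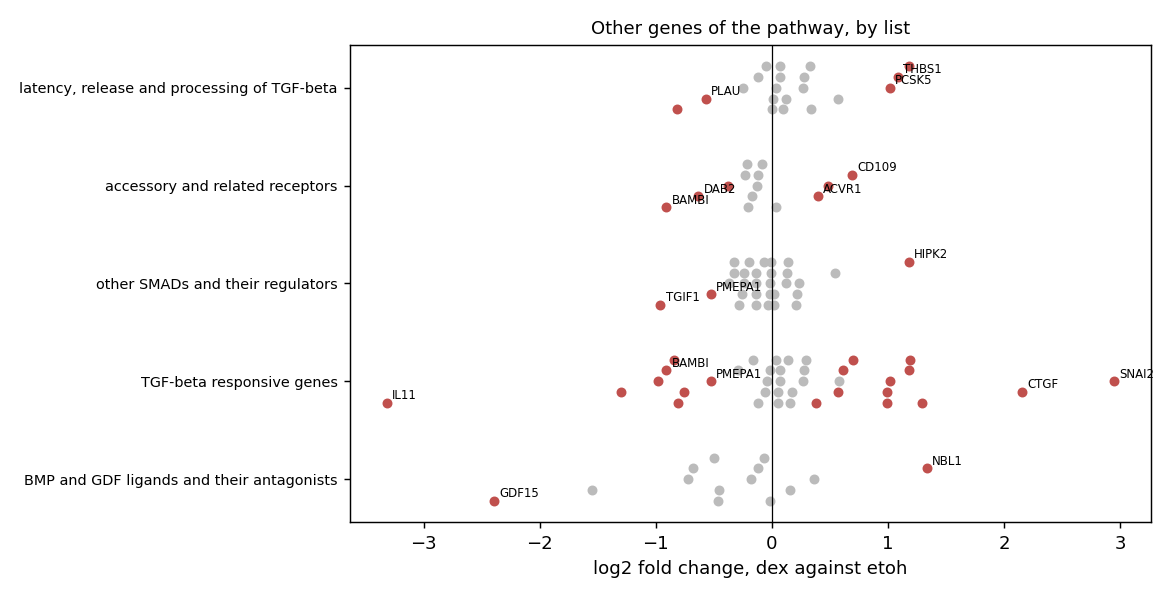
Log2 fold change of dex over etoh for the tested genes of the 5 pathway lists, 1 point per gene, red where edgeR's adjusted p passed 0.05 and grey otherwise, with vertical offsets only to separate points. Red points lie on both sides of 0 in every list.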

How the data were processed

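Total RNA from 4 libraries of A549 cells was measured by mRNA sequencing. Per the labels' protocols, RNA was column-purified with a DNase step and mRNA libraries were made on an automated platform. The deposited files hold raw read counts per transcript and transcript length, made by the authors. The submitters' processing notes name Bowtie, CASAVA, DESeq2 and SAMtools without versions or roles. No source used here gives the aligner settings, build, annotation or strandedness. The unnamed entry of each file, 17.2% to 18.8% of reads, was left out of library sizes and tests.

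Counts were summed over transcripts sharing a gene symbol, filtered by edgeR's filterByExpr (minimum count 10), scaled by TMM and tested with the quasi-likelihood test of edgeR 4.0.16 in R 4.3.3, with Benjamini-Hochberg adjustment over all 14716 genes at 0.05. CPM is scaled to aligned reads and TPM by listed length. The spread between libraries of a group beyond counting error (biological coefficient of variation) was 8.07%, a value fitted in common for all genes. Single genes can spread more or less than that. The fit had 2 residual degrees of freedom before moderation. Alternatives were DESeq2 1.42.0, limma 3.58.1 (voom), other scalings, no filter, a threshold of 0.01, each library left out, and only the most counted transcript per gene. No libraries were duplicates: chi-square per degree of freedom was 5.83 within dex and 7.62 within etoh. The procedure was tested on simulated data.

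The named genes are the 10 members, up to 4 list genes with the smallest p-values and the list gene of highest level per length, FKBP5 and TSC22D3, the 3 genes nearest to the extreme member in each direction, and transcripts holding at least 5% of a member's reads. The list counts include 1 gene whose own result is not reported here. Members and lists were chosen with earlier results of these data known.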

Additional observations from a re-analysis of the deposited data

How the results depend on the processing

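With 2 libraries a group, TGFB3 and changes as small as that of TGFBR2 were not detectable. The calls of TGFB2, TGFBR1 and SMAD3 and their directions held in all 12 alternatives each, at log2 fold changes of -1.73 to -1.55, 1.18 to 1.21 and -1.12 to -1.08 outside the leave-one-out fits. Those 12 leave out the 0.01 threshold and include the replicate block and the crossed replicate block given below, the latter chosen after seeing the data. Genes called higher numbered 656 with DESeq2 and 650 at the 0.01 threshold, and 699 to 1173 with each library left out. Genes called lower numbered 389 with DESeq2, 363 at 0.01, and 401 to 831 with each library left out; the fewest came without etoh replicate 1 and without dex replicate 1 there were 421. Of the 10 genes, those called higher numbered 1 to 2 with each library left out and 1 with the largest transcript only, where TGFBR3 had 0.29. Leaving out each library gave TGFB1 -0.47 to 0.06, TGFBR3 0.45 to 0.72, SMAD6 -0.394 to 0.064 and SMAD7 -0.14 to 0.14. SMAD7 was -0.013 with aligned totals alone, -0.007 with the largest transcript, -0.14 without dex replicate 2 and -0.03 without etoh replicate 2. Pathway transcripts called higher numbered 5 with DESeq2. Among latency genes, 1 was called lower with DESeq2. Accessory receptors called higher numbered 1 with DESeq2, 1 at 0.01 and 1 to 3 with a library left out; those called lower numbered 1 to 3 with a library left out and 1 with the largest transcript. Other SMAD regulators called higher numbered 2 with the largest transcript, and those called lower 2 to 5 with a library left out. BMP and GDF genes called lower numbered 2 with aligned totals. With each library left out, FKBP1A ranged from -0.248 to 0.012, STRAP from -0.075 to 0.059 and TWSG1 from -0.109 to 0.067, and TWSG1 was 0.007 with the largest transcript. The cause of these shifts was not tested. Replicate numbers are shared by the groups, and the labels do not say whether same-numbered libraries were paired. Their deviations correlated at -0.135 over 14716 genes, which rests on a single difference in each group and cannot decide this. With the replicate block 986 genes were higher and 576 lower. No call of the 10 genes changed there (TGFBR3 0.59), while BMPR1B no longer passed (edgeR adjusted p = 0.0674). A crossed replicate block, chosen after seeing the data, gave 1618 genes higher and 1201 lower, 6 latency genes higher, 5 accessory receptors lower, 5 other SMAD regulators lower and 2 BMP and GDF genes lower.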
